A study of Mus musculus with 12 samples.

Results

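Monoamines are cleared by a membrane transporter that carries them into a cell and by enzymes that oxidise them there. Slc6a2 encodes the noradrenaline transporter and Slc6a4 the serotonin transporter, and both sit on nerve endings and also on endothelial cells of the lung, which take these amines out of the blood passing through. Maoa and Maob encode the monoamine oxidases of the outer mitochondrial membrane: the A form prefers serotonin and noradrenaline, and the B form prefers phenylethylamine and other trace amines.

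The set of monoamine uptake, breakdown and adrenergic receptor genes had 7 members, of which 4 had a probe set with a single gene symbol and are described here (Slc6a2, Slc6a4, Maoa and Maob, out of 18193 genes on the array). The other 3, all adrenergic receptors, were not analysed here. RNA came from 6 lung tumours that arose spontaneously in untreated B6C3F1 mice and from 6 normal lungs, all from mice aged 2 years that were kept in a long-term National Toxicology Program bioassay, with 1 array per sample. B6C3F1 is a hybrid laboratory strain long used in such bioassays. Values are signal intensities per probe set, and a probe set is a group of short probes that read 1 transcript. The depth behind a signal is unknown, and the number of arrays limits the precision. The labels do not state whether the samples are separate animals, so the spread is that between samples. The members were chosen with their difference between tumours and normal lungs already known, so that difference is described without a test. A gene with several probe sets is given by the one with the highest mean log2 signal over the 12 arrays. Each difference is the tumour mean less the mean of normal lungs, both as log2(signal + 16), with the standard error from a limma fit to all probe sets. The added 16 makes the differences of dim probe sets smaller.

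The arrays carried lung transcripts in both groups, with the surfactant gene Sftpc at 37380 ± 6692 in tumours and 47390 ± 9941 in normal lungs (SD, n = 6 each). The median signal of an array was 126 to 150 in tumours and 151 to 164 in normal lungs. The Y-linked gene Eif2s3y gave 740.5 to 1638 in tumours 1, 2, 3 and 5 and at most 27.4 on the other 8 arrays. The X-linked gene Xist went the opposite way, with 47.1 to 109 in those tumours and 7877 to 12620 on the other 8 arrays. The groups were thus unbalanced in this pattern. Markers of liver had list means of 9.81 and 10.43 in normal lungs 2 and 4, against 5.22 to 8.29 in tumours and 6.06 to 7.84 in the other normal lungs. In whole tissue, fewer cells of a type and less RNA per cell cannot be told apart.

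RefSeq windows of the gene starts, from 250 bases before to 50 after, were found only for Maoa and Slc6a4, and both are shown. They were not chosen by expression, and no link between the windows and the differences was tested. Capitals mark the GC box, the letters GGGCGG or, on the other strand, CCGCCC, to which Sp1 factors bind. Both windows are on the plus strand of GRCm38.p6, chrX:16619448-16619747 for Maoa and chr11:76998347-76998646 for Slc6a4.
Maoa: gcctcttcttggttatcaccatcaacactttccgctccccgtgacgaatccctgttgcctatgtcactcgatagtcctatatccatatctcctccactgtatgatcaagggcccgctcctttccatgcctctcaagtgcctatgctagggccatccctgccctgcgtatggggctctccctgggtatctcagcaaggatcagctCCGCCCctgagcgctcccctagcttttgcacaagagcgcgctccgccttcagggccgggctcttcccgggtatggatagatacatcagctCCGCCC
Slc6a4: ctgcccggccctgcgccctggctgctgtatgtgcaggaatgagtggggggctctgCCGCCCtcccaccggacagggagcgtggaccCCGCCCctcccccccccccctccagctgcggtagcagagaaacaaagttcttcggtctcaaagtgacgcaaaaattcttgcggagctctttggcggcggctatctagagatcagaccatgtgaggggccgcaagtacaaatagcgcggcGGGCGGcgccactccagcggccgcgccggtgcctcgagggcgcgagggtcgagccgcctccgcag
The Maoa window held 2 matches, both as CCGCCC, and the Slc6a4 window held 3. Of all 32851 windows of this length, 35.7% held at least 1 match, 19.5% at least 2 and 10.7% at least 3. The G and C content was 57.7% for Maoa and 67.7% for Slc6a4, against a median of 52.7% over all windows. Slc6a2 and Maob were not matched.

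Among these genes Slc6a2 was far lower in tumours, Maoa was about 2.04-fold lower, Slc6a4 was lower in some tumours and not in others, and Maob split the tumours into low and normal or high levels. All 4 genes were brighter in at least 1 group than the median probe set. Tumours and normal lungs did not overlap for 2 of the 4 genes, both lower in tumours. Over all 18193 genes, 18.4% did not overlap, with 11.7% lower in tumours and 6.74% higher. By the limma test, 24.0% of all 45037 probe sets passed, with 10.1% higher and 13.9% lower in tumours. Since the members were chosen on this contrast, nothing is read from their count.

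**Figure D1:**
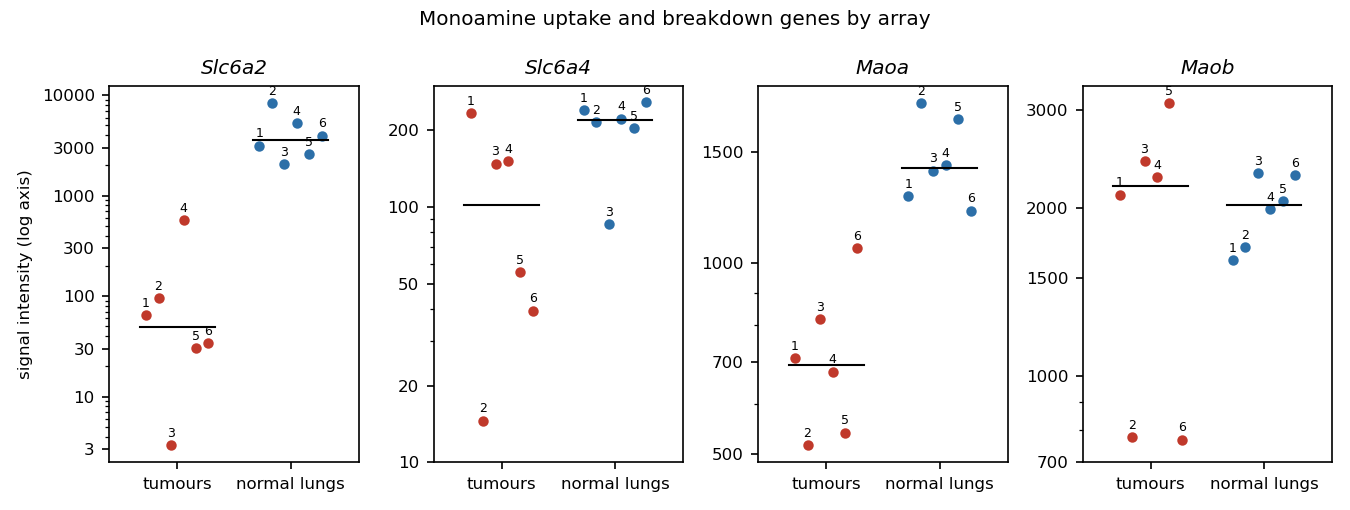
Signal intensity (log axis, a separate scale for each gene) of the 4 genes on each array, with tumours left and normal lungs right. Each point is 1 array with its replicate number and bars are group medians. All 6 tumours lie below all 6 normal lungs for Slc6a2 and Maoa, whereas tumours 2 and 6 stand apart from the other tumours for Maob.

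The noradrenaline transporter Slc6a2 had signals of 64.4, 95.2, 3.28, 572, 30.4 and 34.1 in tumours 1 to 6. In normal lungs 1 to 6 it had 3155, 8352, 2065, 5308, 2608 and 3948. The highest tumour, number 4, was below the lowest normal lung, number 3. The means were 133 ± 217 in tumours and 4239 ± 2311 in normal lungs (SD, n = 6 each), a difference of -5.60 ± 0.62. Tumours 3, 5 and 6 were near or below the level where the added 16 matters, and the difference was -6.23 with an offset of 1 and -4.77 with an offset of 64 in place of 16. Against the normal lungs, tumours 4 and 6 alone gave -4.47.

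The gene had 4 probe sets, and tumours and normal lungs did not overlap on any of them. On the second brightest, signals were 95.7 to 198 in tumours and 527 to 1309 in normal lungs (-2.35 ± 0.23). The third had 37.1 to 119 in tumours and 399 to 702 in normal lungs (-2.76 ± 0.25). The fourth had 78.8 to 108 in tumours and 209 to 707 in normal lungs (-1.80 ± 0.24). The direction was the same on all 4, but the size was not, and the brightest probe set gave the widest difference by far. The fold change of Slc6a2 therefore depends on the probe set.

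Normal lungs also differed among themselves in Slc6a2. Normal lung 2 was highest on all 4 probe sets, at 8352, 1309, 702 and 707, and normal lung 3 was lowest on 3 of them, at 2065, 527 and 209. Normal lungs 2 and 4, which had the highest liver list means, were the highest for Slc6a2 on the brightest probe set (8352 and 5308), and without both the difference was -5.20. Over the 6 normal lungs the log2 signals of the probe sets followed each other closely, with Pearson r of 0.889 to 0.984 between pairs of probe sets. Over the 6 tumours the same pairs had r of 0.084 to 0.759. Points of a correlation share the array and its scaling, and these values are given as a description.

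**Figure D2:**
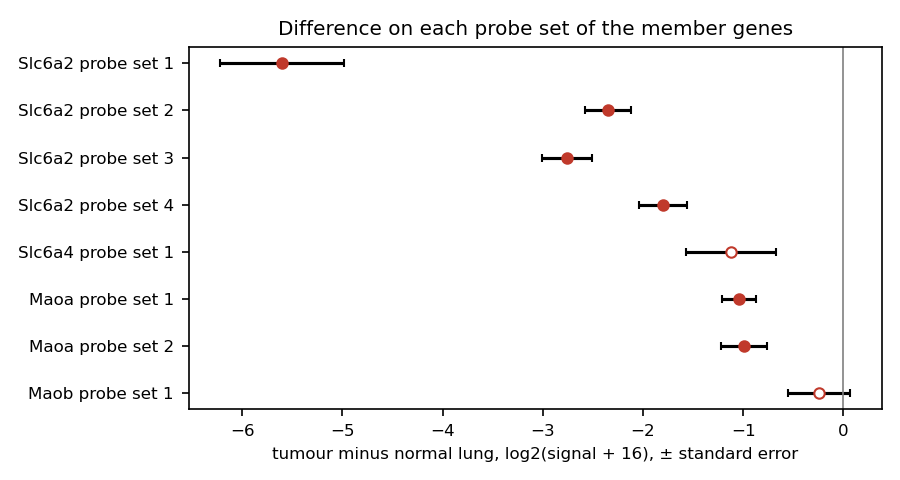
Difference (tumour minus normal lung, log2(signal + 16), points with standard errors, n = 6 arrays per group) on each of the 8 probe sets of the 4 genes, numbered by brightness within a gene. Filled points are probe sets on which the groups do not overlap, which are all 4 of Slc6a2 and both of Maoa.

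The serotonin transporter Slc6a4 had 1 probe set, with signals of 234, 14.6, 148, 152, 55.6 and 39.4 in tumours 1 to 6. Normal lungs 1 to 6 had 241, 216, 85.8, 223, 204 and 259. Tumours 2, 5 and 6 lay below every normal lung, tumour 1 lay within the range of the bright normal lungs, and normal lung 3 stood below tumours 1, 3 and 4. The means were 107 ± 84.2 in tumours and 205 ± 61.3 in normal lungs (SD, n = 6 each), a difference of -1.12 ± 0.45. These are dim signals, and the difference was -0.76 with an offset of 64 and -0.79 without tumour 2.

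Among the oxidases, Maoa had signals of 710, 517, 818, 675, 541 and 1057 in tumours 1 to 6. In normal lungs 1 to 6 it had 1278, 1790, 1400, 1429, 1688 and 1212. Every tumour was below every normal lung, with tumour 6 closest to them. The means were 720 ± 199 in tumours and 1466 ± 228 in normal lungs (SD, n = 6 each), a difference of -1.04 ± 0.17. The other Maoa probe set gave 114 to 318 in tumours and 356 to 459.5 in normal lungs, without overlap, and a difference of -0.99 ± 0.23. Both probe sets gave close to the same size. They ranked the tumours differently, since tumour 3 was highest on the dimmer one and tumour 6 on the brighter one.

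Maob, the next protein-coding gene to Maoa on the X chromosome, did not share its pattern. Signals were 2113, 777, 2429, 2272, 3089 and 769 in tumours 1 to 6, against 1613, 1704, 2309, 1994, 2057 and 2290 in normal lungs 1 to 6. Tumours 2 and 6 were below every normal lung, tumours 3 and 5 were above every normal lung, and tumours 1 and 4 lay within the range of the normal lungs. The group means were therefore close, at 1908 ± 940 in tumours and 1995 ± 290 in normal lungs (SD, n = 6 each), with a difference of -0.24 ± 0.31. On the log2 scale the SD between samples was 0.87 in tumours and 0.21 in normal lungs. The mean difference was -0.02 without tumour 2 and also without tumour 6.

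Both oxidase genes are X-linked, and 4 tumours had high Eif2s3y and low Xist while no normal lung did. This imbalance is part of the contrast, and its part in the differences was not tested beyond the values that follow. In tumours 4 and 6, which lacked this pattern, Maoa was at 675 and 1057 and Maob at 2272 and 769. With those 2 tumours alone against the 6 normal lungs the differences were -0.77 for Maoa and -0.57 for Maob. When Eif2s3y entered the fit as a covariate they were -0.84 and -0.48.

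Of the 6 pairs among the 4 genes, Slc6a4 and Maob were the most alike from sample to sample. Deviations from the group means over the 12 arrays gave Pearson r of -0.16 between Slc6a2 and Maoa, 0.16 between Slc6a2 and Slc6a4, -0.08 between Slc6a2 and Maob, 0.18 between Slc6a4 and Maoa, -0.24 between Maoa and Maob and 0.58 between Slc6a4 and Maob. Tumours 2 and 6 were low for both Slc6a4 and Maob. Tumour 5 was low for Slc6a4 (55.6) but the highest of the 12 arrays for Maob (3089).

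Marker genes of vessels moved with the contrast and with Slc6a2. All 20 endothelial genes measured fell in tumours, with a list mean of 8.85 to 10.11 log2 units in tumours and 12.06 to 12.46 in normal lungs. Among them Ramp2, a receptor partner for adrenomedullin, averaged 965 ± 469 in tumours and 12930 ± 1989 in normal lungs, and Ptprb, an endothelial phosphatase, 1685 ± 781 in tumours and 14170 ± 1401 in normal lungs (SD, n = 6 each). Tumour 4, which had the highest Slc6a2 of the tumours, also had the highest endothelial mean (10.11). Normal lung 2 had the highest Slc6a2 and endothelial mean (12.46) of the normal lungs. The other normal lungs did not follow this order. Normal lung 3 had the lowest Slc6a2 (2065) with an endothelial mean of 12.29, and normal lung 1 had the lowest mean (12.06) with 3155. On the log2 scale the SD of Slc6a2 was 1.66 in tumours and 0.73 in normal lungs, so tumours weigh most in the next value. The deviations of Slc6a2 and of the endothelial mean had r of 0.71 over 12 arrays. Lists of club and ciliated cells (r of 0.76), fibroblasts (0.75), smooth muscle (0.67), sympathetic nerve and ganglion (0.64), platelets (0.64) and cardiac muscle (0.60) gave values on both sides of it, and all of these points share the array and its scaling. Of these lists 9 of 10 fibroblast genes, 8 of 8 club and ciliated genes and 10 of 10 smooth muscle genes fell. Their part in the Slc6a2 difference was not tested.

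Other cells that could carry these transporters were read by fewer bright genes: 3 of 11 sympathetic nerve and 4 of 10 mast cell genes were brighter than the median probe set, against 7 of 8 platelet and 20 of 20 endothelial genes. The lists were not tested against each other. Beside the counts of each list, 17.4% of all genes fell and 12.1% rose. Of 11 sympathetic nerve and ganglion genes 3 fell and none rose, and the median difference was -0.05. The list means were 6.06 to 6.75 in tumours and 6.71 to 7.16 in normal lungs. Among those that fell were Stmn2, a neuronal protein, at 257 ± 152 in tumours and 2206 ± 244 in normal lungs (SD, n = 6 each), and Gap43, a growth cone protein, at 44.1 ± 39.9 in tumours and 460 ± 126 in normal lungs. Th, the first enzyme of noradrenaline synthesis, was dim in both groups, at 47.1 ± 30.5 in tumours and 46.7 ± 13.2 in normal lungs (limma adjusted p = 0.841). Dbh, Slc18a2, Phox2a and Npy of the same list did not pass either (limma adjusted p of 0.952, 0.333, 0.436 and 0.118). Of 8 platelet and megakaryocyte genes 5 fell and none rose, with list means of 7.40 to 8.04 in tumours and 8.16 to 9.49 in normal lungs. The brightest of them, Pf4, went the other way without passing. It averaged 6617 ± 7049 in tumours and 1643 ± 482 in normal lungs (SD, n = 6 each; limma adjusted p = 0.0647). Platelets carry the serotonin transporter. The deviations of Slc6a4 had r of 0.15 with the platelet mean over 12 arrays, against 0.76 with the alveolar type I mean, 0.67 with the type II mean and 0.41 with the endothelial mean. Of 10 mast cell genes 2 fell, with list means of 6.39 to 7.18 in tumours and 7.03 to 7.71 in normal lungs. These 2 were Kit (500 ± 266 in tumours, 3439 ± 517 in normal lungs) and Gata2 (454 ± 174 and 2875 ± 671.5). The list mean had r of -0.68 with Slc6a4. Tpsab1, a gene of this list, had 2293 and 1070 in tumours 2 and 6 and at most 98.4 on the other arrays. Their part in the differences of the transporters was not tested.

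Cardiac muscle genes, which are also expressed in the pulmonary veins, were lower in tumours too. Of the 14 measured 13 fell, with list means of 5.97 to 7.71 in tumours and 9.78 to 10.60 in normal lungs. Neither their source in these samples nor their part in the Slc6a2 difference was tested. The alveolar type I list fell in 9 of 10 genes, with list means of at most 12.12 in tumours and at least 12.88 in normal lungs. Of 6 adipocyte genes 1 rose and 2 fell, and of 7 liver genes 1 fell.

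Among tumours, Maob followed the alveolar type II list instead. Type II cells make surfactant, and 5 of the 11 listed genes rose and none fell. Their list mean was 12.77 and 13.03 in tumours 6 and 2, the same tumours in which Maob was low, and 14.06 to 14.35 in tumours 1, 3, 4 and 5, against 12.91 to 13.13 in normal lungs. The deviations of Maob and of the type II mean had r of 0.93 over 12 arrays. The tumours carried most of this, since the log2 SD of Maob was 0.87 in tumours and 0.21 in normal lungs. Among normal lungs the lowest type II mean (12.91, number 6) went with a Maob signal of 2290. The highest (13.13, number 4) went with 1994. Normal lungs had type II means near those of tumours 2 and 6 but Maob levels of at least 1613.

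**Figure D3:**
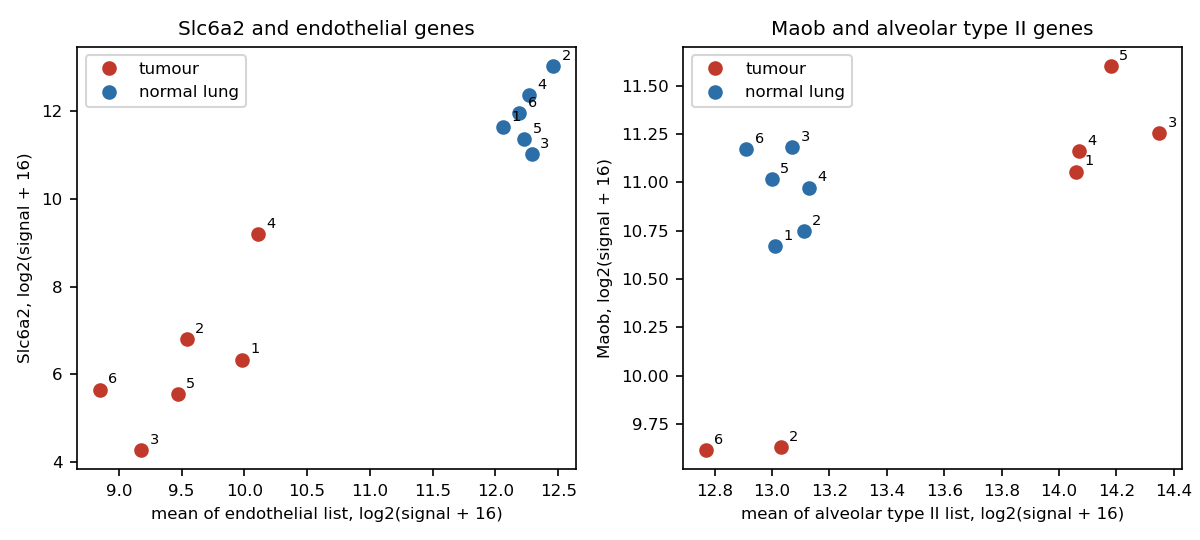
Left, Slc6a2 against the mean of 20 endothelial genes, and right, Maob against the mean of 11 alveolar type II genes, all in log2(signal + 16), 1 point per array with its replicate number. Tumours (red) and normal lungs (blue) are apart for Slc6a2, and tumours 2 and 6 are low on both axes for Maob.

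The genes most like each member were sought among genes brighter on average than the median probe set, by Pearson r of the deviations from the group means over 12 arrays. For Slc6a2 these were Armcx4 (r of 0.942), the lung mesenchyme non-coding RNA Fendrr (0.932) and Thbd, the endothelial anticoagulant receptor thrombomodulin (0.930). All 3 fell in tumours by limma, with differences of -2.63 ± 0.25 for Armcx4, -4.02 ± 0.23 for Fendrr and -3.91 ± 0.34 for Thbd (adjusted p of 2.87e-06, 7.58e-08 and 1.18e-06). Thbd was highest in tumour 4 (2057) among tumours and in normal lung 4 (13290) among normal lungs. For Slc6a4 they were Wipf3 (0.957), Gnptab (0.936) and AI504432 (0.928). Their group differences pointed apart, with Wipf3 lower (-1.21 ± 0.30, adjusted p = 0.00773) and Gnptab, an enzyme that marks proteins for lysosomes, higher (1.36 ± 0.21, adjusted p = 2.02e-04).

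For Maoa the closest genes were Ubr7 (0.880), Rbm22 (0.865) and Klhdc1 (0.853), none of which passed the test (adjusted p of 0.999, 0.789 and 0.352). For Maob they were Slc1a1 (0.978), a glutamate transporter, Lgi3 (0.971) and Csrp1 (0.970). Lgi3 had signals of 425 and 448 in tumours 2 and 6 and of 4495 to 5709 in the other 4 tumours, against 1114 to 2003 in normal lungs, and its group difference did not pass (0.59 ± 0.62, adjusted p = 0.549). Slc1a1 did not pass either (-0.25 ± 0.32, adjusted p = 0.644), whereas Csrp1 fell in tumours (-0.79 ± 0.27, adjusted p = 0.0417).

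Outside the members, 82 other genes of monoamine handling and of the receptors' coupling were listed, and 70 had a probe set. In the limma fit with Benjamini-Hochberg adjustment over 45037 probe sets, 6 of the 70 rose (8.57%) and 16 fell (22.9%). Over all genes 12.1% rose and 17.4% fell. The median difference of the 70 was -0.15, against -0.08 over all genes, and 39 of the 70 had a group mean above that of the median probe set.

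**Figure D4:**
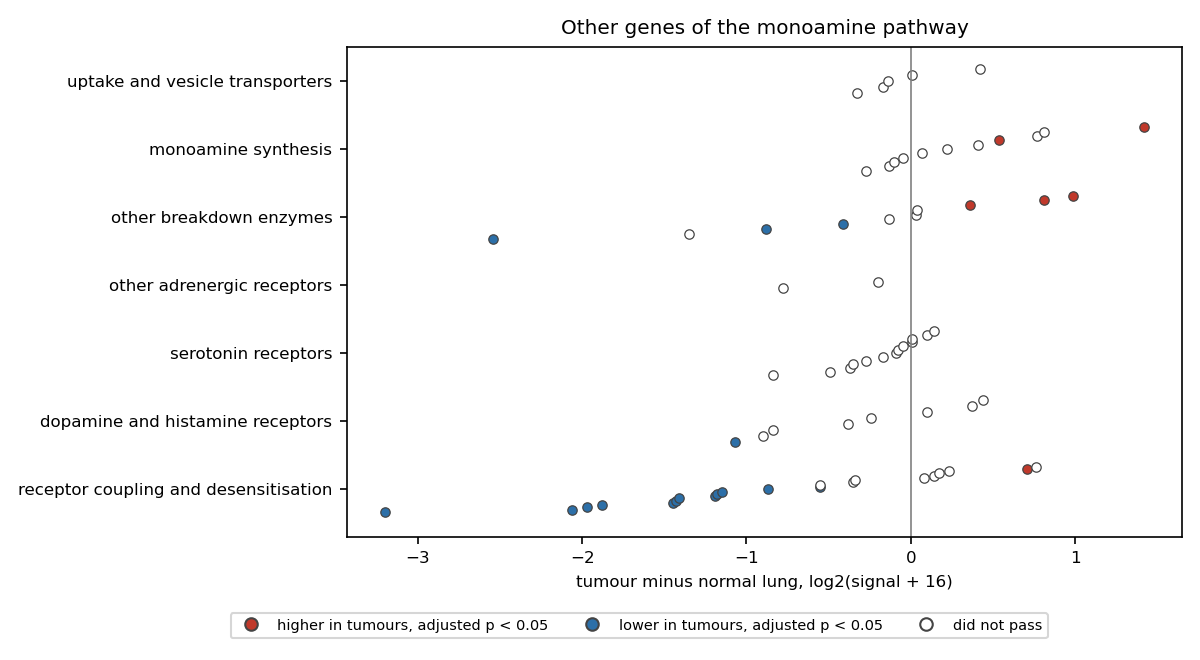
Difference (tumour minus normal lung, log2(signal + 16), n = 6 arrays per group) of 70 other genes of the pathway, 1 point per gene, by list. Filled points passed the limma test, with red higher and blue lower in tumours. Most of the falls are in the receptor coupling list.

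Of 11 synthesis genes 2 rose (18.2%) and none fell (median 0.22), against 12.1% and 17.4% of all genes. Both that rose make tetrahydrobiopterin, the cofactor of the amine hydroxylases. Gch1 and Qdpr, which also serve this cofactor, did not pass (limma adjusted p of 0.333 and 0.249). Spr, sepiapterin reductase, had signals of 863, 939, 1448, 2054, 2421 and 1932 in tumours 1 to 6, against 343, 632, 580, 620, 650 and 535 in normal lungs 1 to 6 (1.42 ± 0.25, adjusted p = 6.07e-04). Every tumour was above every normal lung. Pts, the step before it, averaged 1016 ± 122 in tumours and 692 ± 68.6 in normal lungs (SD, n = 6 each; 0.54 ± 0.12, adjusted p = 0.00279). The call of Pts was lost when its probe sets were averaged (adjusted p = 0.071). Dbh, which makes noradrenaline from dopamine, and Tph1, which starts serotonin synthesis, were dim and did not pass (adjusted p = 0.952 and 0.914).

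A pair of amine-forming decarboxylases varied between tumours and are named after their values were seen. Hdc, which makes histamine, had 621 and 715 in tumours 2 and 6 and 5157 to 8473 in the other 4 tumours, against 1107 to 4095 in normal lungs (0.81 ± 0.61, adjusted p = 0.386). The tumours low in Maob were thus the tumours low in Hdc. Ddc, which makes dopamine and serotonin, had 5132 and 2407 in tumours 5 and 6 and 37.3 to 381 in the other 4, against 225 to 334 in normal lungs (0.77 ± 0.82, adjusted p = 0.558).

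Breakdown enzymes beyond the monoamine oxidases moved both ways, with 3 of 10 higher and 3 lower (median -0.05). Aoc1, the diamine oxidase, averaged 98.4 ± 70.6 in tumours and 513 ± 118 in normal lungs without overlap (SD, n = 6 each; -2.54 ± 0.45, adjusted p = 6.93e-04). Aoc3, an amine oxidase of vessel walls and fat, fell (-0.88 ± 0.23, adjusted p = 0.0107), as did the fatty aldehyde dehydrogenase Aldh3a2 (-0.41 ± 0.10, adjusted p = 0.00474). The Aldh3a2 call was lost after median centring (adjusted p = 0.111), with tumours 4 and 6 alone (0.0833) and once Eif2s3y was a covariate (0.0934). Aldh9a1, which oxidises aminoaldehydes, rose (0.81 ± 0.20, adjusted p = 0.00779). The other 2 that rose, named after their values were seen, were Akr1a1, an aldehyde reductase (0.36 ± 0.11, adjusted p = 0.0251), and Hnmt, the histamine methyltransferase (0.99 ± 0.34, adjusted p = 0.0431). The second Aldh9a1 probe set did not pass (0.32 ± 0.15, adjusted p = 0.132), and neither did the other 3 of Akr1a1 (adjusted p of 0.0585, 0.156 and 0.227). Aldh2, which oxidises the aldehydes that the monoamine oxidases produce, did not pass on its brightest probe set (adjusted p = 0.94), but 2 of its 4 other probe sets fell (-1.09 ± 0.14 and -1.18 ± 0.19).

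Other uptake and vesicle transporters gave no call in 5 genes by limma, and 0 of the 5 had an unadjusted p under 0.05. Slc18a2, the vesicular monoamine transporter, averaged 96.3 ± 30.8 in tumours and 68.5 ± 28.3 in normal lungs (SD, n = 6 each; adjusted p = 0.333). The remaining adrenergic receptors measured, Adra1b and Adra2c, were dimmer than the median probe set in both groups. Adra1b had 5.09 to 76.5 in tumours and 11.3 to 108 in normal lungs (-0.78 ± 0.42, adjusted p = 0.212). Adra2c had 7.51 to 72.0 in tumours and 15.0 to 106 in normal lungs (-0.20 ± 0.38, adjusted p = 0.759). For both genes the groups overlapped, neither had an unadjusted p under 0.05, and no difference was detectable at such signals.

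No serotonin receptor of 13 passed in limma, and 1 had an unadjusted p under 0.05. Of the 13, 2 were brighter than the median probe set. Htr2b, a receptor of smooth muscle and fibroblasts, averaged 96.0 ± 28.3 in tumours and 198 ± 95.9 in normal lungs (SD, n = 6 each; -0.84 ± 0.31, adjusted p = 0.0636). It passed without normal lung 1 (adjusted p = 0.042) and without normal lung 3 (adjusted p = 0.0189). Of 8 dopamine and histamine receptors, all dim, Hrh4 fell (-1.07 ± 0.36, adjusted p = 0.0449). That call was lost in 14 of the 22 other settings, with adjusted p up to 0.402.

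Coupling and desensitisation genes, which act downstream of adrenergic and many other receptors, fell in 12 of 21 cases and rose in 1 (57.1% and 4.76%; median -0.87). Of the 21, 20 were brighter than the median probe set in a group, and of all genes that bright 23.1% fell and 17.7% rose. Adcy2, an adenylyl cyclase, averaged 177 ± 34.8 in tumours and 781.5 ± 81.0 in normal lungs without overlap (SD, n = 6 each; -2.06 ± 0.15, adjusted p = 2.62e-07). Adcy4, a cyclase of endothelium, averaged 258 ± 62.9 in tumours and 1035 ± 61.2 in normal lungs (-1.97 ± 0.15, adjusted p = 4.79e-07). Arrb1, an arrestin that ends signalling by beta-adrenergic receptors, fell (-1.41 ± 0.11, adjusted p = 5.12e-07), and so did the receptor kinase Grk5 (-1.88 ± 0.16, adjusted p = 8.61e-07). The other arrestin listed, Arrb2, did not pass (adjusted p = 0.314, and 0.45 on its other probe set). Of the other receptor kinases measured, Grk3 and Grk6 did not pass (adjusted p of 0.785 and 0.164), whereas the dim Grk4 fell (-1.15 ± 0.39, adjusted p = 0.0426). Adcy6, another cyclase, was the gene that rose and is named after its value was seen (0.71 ± 0.18, adjusted p = 0.0103). The endothelial list, with 20 of 20 genes lower, moved in the same direction as most of these genes. So did smooth muscle (10 of 10), club and ciliated cells (8 of 8), fibroblasts (9 of 10), cardiac muscle (13 of 14) and alveolar type I cells (9 of 10). In the alveolar type II list 5 of 11 genes rose and none fell. The part of these lists in the coupling genes was not tested.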

How the data were processed

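The deposited intensity values are linear signals of each probe set, which the authors made with the MAS5 algorithm named in the labels' list of tools (per the submitters' processing notes). Its version is not given in the sources used here. Every array had the same trimmed mean, so the authors' scaling was kept. Of 45101 probe sets, 64 array controls were left out; 34945 of the 45037 tested had 1 symbol in GEO's platform annotation, checked against RefSeq (GRCm38.p6), 932 had several and 9160 none listed. Sample titles gave the groups and replicate numbers. Arrays correlated at 0.868 to 0.966 and no array repeated another.

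Values were taken as log2(signal + 16) and tested by limma 3.58.1, run in R 4.3.3 (eBayes with intensity trend, no covariate), adjusted over all probe sets at 0.05, two-sided. The fit was tested on simulated data. Tables and plots used Python 3.11.15, pandas 2.3.3 and matplotlib 3.10.9. The members and gene lists were chosen with earlier results of these data known. Named genes were the members, called genes of each pathway list (up to 4), some fixed genes, the 3 closest genes to each member and the brightest markers. Some genes fixed by that rule, like some list members and 3 members of the set, were not analysed here. Alternatives were other offsets, quantile normalization, median centring, dim probe sets left out, no trend, the replicate block, other probe sets, Eif2s3y as a covariate and arrays left out.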

Additional observations from a re-analysis of the deposited data

Results flagged for a closer look

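Within groups of 6 arrays, a value was singled out when its gap to the next, divided by the range of the group, was above Dixon's critical value. Chance does this in about 1 in 20 groups, and 6 of 76 groups held such a value. Of the members, Slc6a4 in normal lung 3 was one, at a signal of 85.8 against 204 to 259 in the other normal lungs (ratio 0.775 on the log2 scale). The adipocyte list mean in normal lung 2 was another, at 8.45 against 6.46 to 6.99 (0.735). The rest were Th in normal lung 2 (0.633), Spr in normal lung 1 (0.695), and Dbh (0.714) and Hrh4 (0.721) in tumour 6. Without normal lung 3 the Slc6a4 difference was -1.33, against -1.12 with all arrays.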

How the results depend on the processing

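The differences of Slc6a2, Slc6a4 and Maoa stayed negative in each setting that was computed for them, which leaves out the settings without dim probe sets and without the intensity trend. Maob was too near 0 to have a direction. The Slc6a2 difference of -5.60 was -3.13 when its probe sets were averaged and -2.35 on the second brightest, because the dimmer probe sets gave smaller differences, and leaving out 1 array gave -6.18 to -5.19. Leaving out 1 array gave -1.39 to -0.79 for Slc6a4, -1.16 to -0.95 for Maoa and -0.42 to -0.02 for Maob. Maob was also -0.05 after median centring. Over all probe sets, 4529 were higher and 6279 lower. The count higher was 7431 after median centring, where the count lower was 4566, and 5633 against 5503 after quantile normalization; the median difference over all probe sets was -0.06, 0.13 after centring and 0.05 after quantile normalization. Without normal lungs 2 and 4 the count higher was 3003, in a fit of fewer arrays. With Eif2s3y as a covariate 2603 were higher and 4069 lower; the cause was not tested. Leaving out 1 array gave 3839 to 4858 higher and 5617 to 6321 lower. Of the 70 other pathway genes, 4 to 8 were higher and 12 to 16 lower over all settings. The replicate numbers did not pair the samples (correlations of -0.018 to 0.022 between same-numbered deviations, and 0 of 12 samples correlated best with its own number). With the replicate block 3969 probe sets were higher and 5646 lower, and 5 and 14 pathway genes were called in these directions. Each replicate number held 1 tumour and 1 normal lung, so the block could not change the member differences, only their standard errors. No depth is known for these signals, and dim genes, including the receptors, are limited by background.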
